A study of Homo sapiens with 10 samples.

Results

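The 5 libraries of KCNH2 knockout human embryonic stem cells were compared with each other, to describe which genes varied most between them and which genes followed CDKN1A and GDF15. The cells are WAe009-A, an established embryonic stem cell line also known as H9, and KCNH2 encodes the hERG1 potassium channel. The series holds 10 polyA RNA libraries, 5 titled as knockout (here KO_1 to KO_5) and 5 as wild type (WT). The sample titles and growth protocol give the edited group as a knockout of both alleles, whereas the genotype field reads knockdown. All 5 knockout libraries share the same cell line, genotype, Matrigel coating and mTeSR Plus medium, and WT cells grew in TeSR-E8. The labels do not say whether the 5 libraries came from separate cultures, passages, days or clones, so the spread between them may be technical. Levels are CPM, the counts of a gene divided by the total of its library and multiplied by 1e6. Of 32152 genes in the count table, 12114 had a mean of at least 5 CPM over the knockout libraries and make up the genes described. ASIC1, at 5.0 CPM, was the last gene inside that limit and C19orf44, at 4.999 CPM, the first outside. No level is compared between knockout and WT.

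CDKN1A encodes p21, an inhibitor of cyclin-dependent kinases that slows the cell cycle, and is a classical target of the tumour suppressor p53. GDF15 encodes a secreted stress cytokine of the TGF-beta superfamily, which responds to p53 and to the ATF4 arm of the integrated stress response. YAP and TAZ, the coactivators of the Hippo pathway, and the transcription factor SRF read the state of the actin cytoskeleton. NODAL and WNT ligands are the signals that begin mesoderm and endoderm formation.

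The knockout libraries held 29788732 to 40587206 counts, so 3 counts, the most that a count of 0 allows, came to 0.0739 to 0.101 CPM. KO_1 had the lowest total and KO_4 the highest. KCNH2 transcript was still counted at 11.1, 13.0, 12.6, 11.8 and 10.9 CPM in KO_1 to KO_5, the order used for all values below. Transcript counts do not show whether the channel protein is made, and the labels do not state the kind of edit. POU5F1 (2940 to 3360 CPM), SOX2 (242 to 318 CPM) and NANOG (74.6 to 93.4 CPM), which define pluripotent cells, were high in every library. TBXT and EOMES of the primitive streak, PAX6 and SOX1 of neural progenitors, GATA6 of endoderm and COL3A1 of fibroblasts stayed at or below 0.22 CPM in each. COL1A1 (63.4 to 75.3 CPM) and THY1 (644 to 750 CPM), which fibroblasts also make, were counted in all 5. MIXL1 of the primitive streak (0.824 to 1.45 CPM), FOXA2 of endoderm (0.267 to 0.571 CPM), SOX10 of neural crest (3.31 to 5.17 CPM) and GABRP of amnion (6.04 to 7.00 CPM) were counted at low levels in all 5 too. HAND1, SOX17, DCN and CGA were not analysed here. In bulk RNA, fewer cells of a type and less RNA per cell cannot be told apart.

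The 5 libraries were alike for most genes. The median gene differed 1.14-fold between its highest and lowest library, after 0.5 CPM was added to each value, and its standard deviation (SD) was 0.08 on the log2 scale, where Poisson counting alone would give 0.04. The SD was more than 2 times the counting SD for 5804 genes, or 47.9% of those described. A gene was called varying when its highest library was at least 2 times its lowest. That held for 361 genes, 2.98% of 12114. A lower ratio of 1.5, used below for groups of genes, was reached by 631 genes (5.21%), 329 of which were not pseudogenes (2.83% of 11644). PHLDA2 lay just inside the 2-fold limit at 2.012-fold and NODAL just outside at 1.996-fold.

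Most of the varying genes were pseudogenes, and a single library set them apart. Processed pseudogenes are copies of messenger RNAs that were written back into the genome, so their reads are hard to tell from those of the parent gene. Pseudogenes of all kinds made up 280 of the 361 varying genes, which was 59.6% of the 470 pseudogenes described. All 280 were lowest in KO_3, and 255 of them were highest in KO_1. EEF1A1P4, a copy of the translation elongation factor EEF1A1, was at 97.7, 80.7, 19.1, 82.3 and 69.4 CPM. Its level in KO_3 was far below that of the other libraries, which lay close together.

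The parent genes did not show this drop. The 11 varying copies of EEF1A1 summed to 1794, 1538, 453, 1562 and 1417 CPM, whereas EEF1A1 itself was at 16090, 16060, 16950, 16910 and 16140 CPM. Of 114 parent genes of varying copies, 0 differed 2-fold between libraries, and 29 were highest in KO_3. Across the library, processed pseudogenes took 1.43%, 1.26%, 0.495%, 1.24% and 1.24% of all counts. The share in KO_3 was the lowest of the 5, and WT_2 and WT_3, at 0.566% and 0.396%, also lay below the other WT libraries. How reads that match both a copy and its parent were assigned was not tested. Without KO_3, 41 of the 12114 genes varied (0.338%), and none of these was a pseudogene, so they were 0.352% of the other 11644. Some of the results below are therefore also given without KO_3, and the others rest on all 5 libraries.

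**Figure D1:**
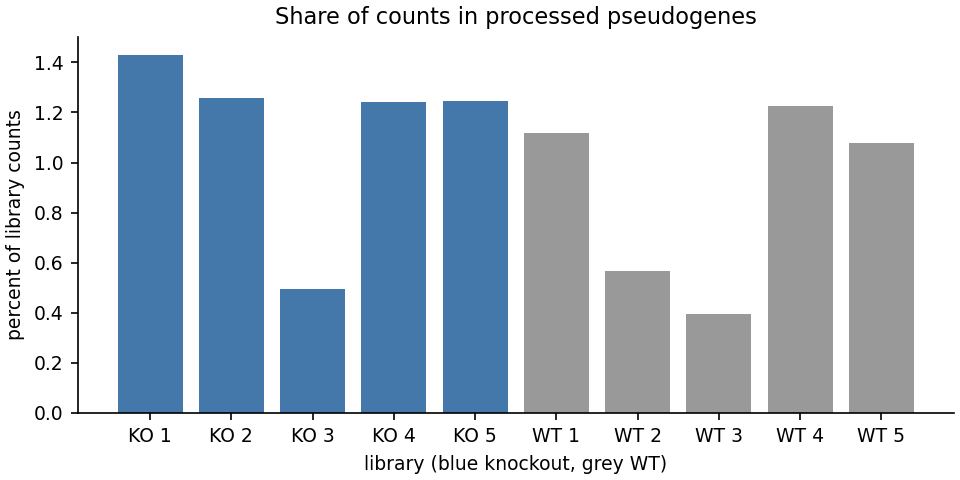
Percent of each library's counts in processed pseudogenes (y axis) for the 5 knockout (blue) and 5 WT (grey) libraries on the x axis. KO 3 stands at 0.495%, while the other knockout libraries lie between 1.24% and 1.43%.

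**Figure D2:**
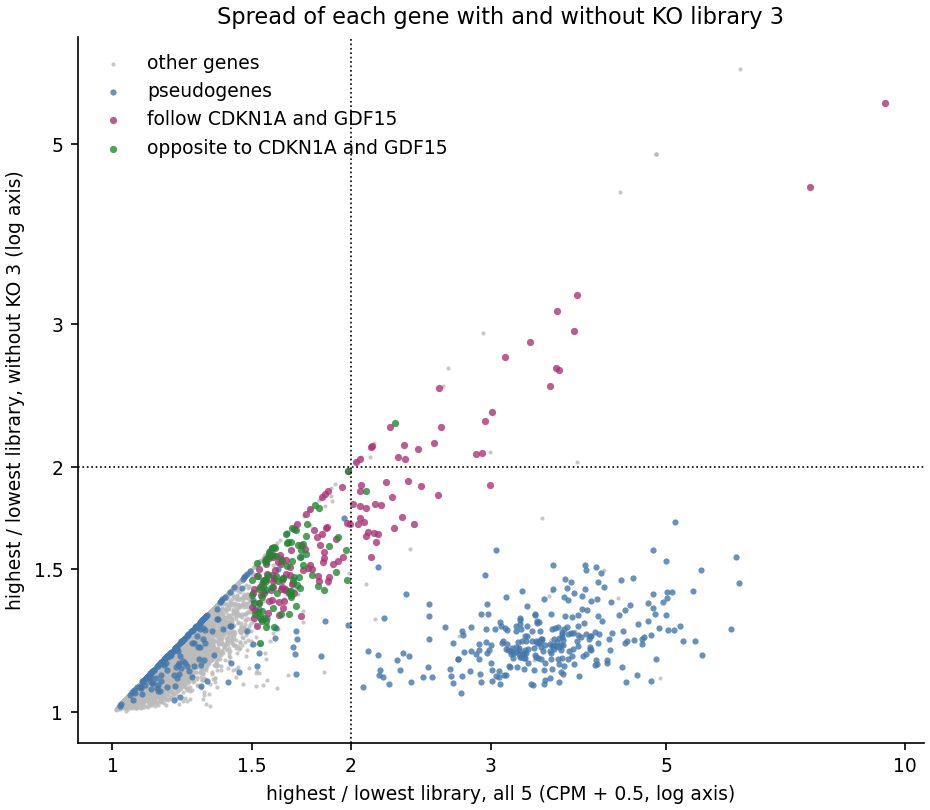
Highest-to-lowest ratio of each of the 12114 genes over all 5 knockout libraries (x axis, log scale) against the same ratio without KO 3 (y axis, log scale), with dotted lines at 2. Pseudogenes (blue) spread to the right and stay low on the y axis, while the genes following CDKN1A and GDF15 (purple) keep much of their spread. The following genes were chosen by likeness to CDKN1A and GDF15, which keep much of theirs.

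With pseudogenes left out, 81 of 11644 genes varied (0.696%). KO_3 was the highest library for 51 of the 81 and KO_1 the lowest for 56. In the WT libraries, 28 of the same 11644 genes (0.24%) differed 2-fold, or 308 of all 12114 (2.54%), and the difference between these shares was not tested. On the first principal component of log2 values without pseudogenes, which held 64.5% of the variance, KO_1 and KO_2 stood at -12.3 and -8.0, KO_5 at 1.2, and KO_4 and KO_3 at 6.7 and 12.4. The order of the libraries along it was that of CDKN1A. Variation between the libraries, as the common biological coefficient of variation from edgeR, a single value for all genes, was 6.97% without pseudogenes. It was 6.28% when KO_3 was also left out and 6.31% when KO_1 was left out instead. Leaving out KO_2, KO_4 or KO_5 gave 7.17% to 7.59%.

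CDKN1A was at 26.2, 37.9, 96.6, 82.5 and 58.0 CPM. KO_3 and KO_4 were high, KO_5 lay between, and KO_1 and KO_2 were low. CDKN1A (chr6:36676460-36687339, plus strand, GRCh38) thus differed 3.64-fold between KO_3 and KO_1, with an SD of 0.77 on the log2 scale against 0.04 from counting alone. Without KO_3 it still differed 3.12-fold, between KO_4 and KO_1. The lowest library rested on 779 counts and the highest on 3619.

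GDF15 was at 18.7, 27.6, 181, 108 and 64.3 CPM. The libraries kept the order of CDKN1A, with KO_3 highest and KO_1 lowest. GDF15 (chr19:18374731-18389176, plus strand, GRCh38) had the largest ratio of any named gene, 9.45-fold, and 5.62-fold without KO_3. In the WT libraries, CDKN1A and GDF15 differed 1.52-fold and 1.82-fold between the highest and the lowest library. KO_1, lowest for both genes, also had the lowest total (29788732 counts), and KO_3 and KO_4, highest for both, had the highest totals (37465295 and 40587206). KO_3 also had the lowest processed pseudogene share, 0.495%, and KO_4 had 1.24%. The part of depth and of the pseudogene difference in the order of the libraries was not tested.

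NODAL, a TGF-beta family ligand of the early embryo, was at 6.01, 7.665, 12.5, 10.6 and 9.24 CPM. WNT3, a ligand of the canonical WNT pathway, was at 2.28, 3.27, 5.15, 4.76 and 3.845 CPM and therefore had a mean below the 5 CPM limit. ACTC1, the actin of heart muscle, was at 27.2, 32.1, 49.97, 50.8 and 41.2 CPM. All 3 genes were lowest in KO_1, and KO_3 and KO_4 were the highest 2 libraries for each. Their ratios were 1.996, 2.03 and 1.85, and without KO_3 they were 1.70, 1.89 and 1.85. In WT the ratios were 1.42, 1.29 and 1.11. WNT3 lay at 0.486 to 0.769 CPM there, about the size of the 0.5 CPM added to each value, which lowers its WT ratio.

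**Figure D3:**
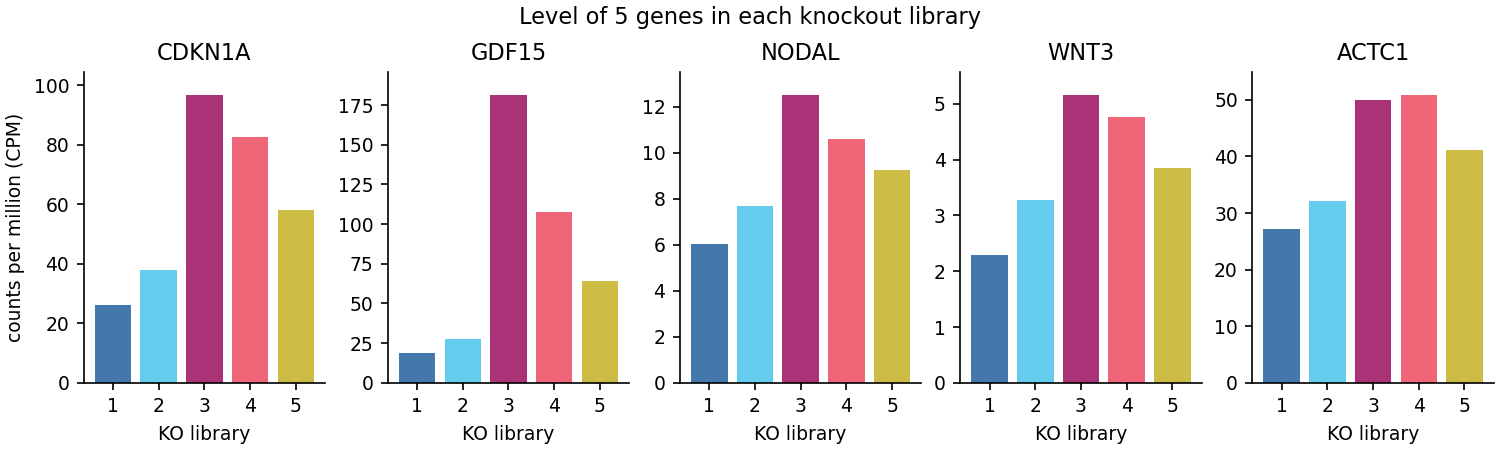
Level in CPM (y axis, a scale of its own for each gene, starting at 0) of CDKN1A, GDF15, NODAL, WNT3 and ACTC1 in knockout libraries 1 to 5 (x axis), 1 bar per library. Libraries 3 and 4 are the highest and library 1 the lowest for each gene.

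A gene was said to follow CDKN1A and GDF15 when Pearson's r of its log2(CPM + 0.5) with each of them was at least 0.9 over the 5 libraries and its ratio was at least 1.5, and to run opposite when both r were at most -0.9. With 5 points that share library and depth, r serves only as a measure of likeness. By this rule 143 genes followed (1.18% of 12114), 128 of them protein coding, and 85 ran opposite (0.702%), 80 of them protein coding. With any ratio allowed, 6.98% of all genes had both r at or above 0.9, and 9.96% had both at or below -0.9. Of the 81 varying genes that were not pseudogenes, 51 followed and 2 ran opposite. CDKN1A and GDF15 themselves met the rule and are counted among the 143 and the 51. KO_3 was highest for 131 of the 143 and KO_4 for the other 12.

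The choice of r fixes most of that order. It also bears on the spread without KO_3, because CDKN1A and GDF15 themselves still differed 3.12-fold and 5.62-fold there. The counts that follow are therefore not independent of the rule. Of the 143 following genes, 96 (67.1%) still had a ratio of 1.5 in the other 4 libraries, as did 36 (42.4%) of the 85 opposite genes. The 4 other libraries alone stood in the order of CDKN1A for 122 of the 143, beside 6.78% of all genes. All 5 stood in that order for 110 of the 143, beside 4.21% of all genes. When the rule was applied without KO_3, 95 genes followed, 93 of them among the 143, and 40 ran opposite, 34 of them among the 85. Scaling by edgeR's TMM factors in place of column totals gave 186 following genes, which included all 143, and 59 opposite genes. DESeq2's size factors gave 192 and 57. The limit of 5 CPM was applied again after scaling, and on the same 12114 genes the opposite genes were 60 and 58. The split between the 2 directions depended on the scaling: with CDKN1A alone and any ratio, 7.57% of genes had r of at least 0.9 and 11.3% at most -0.9 on column totals, but 12.2% and 6.63% with TMM scaling.

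**Figure D4:**
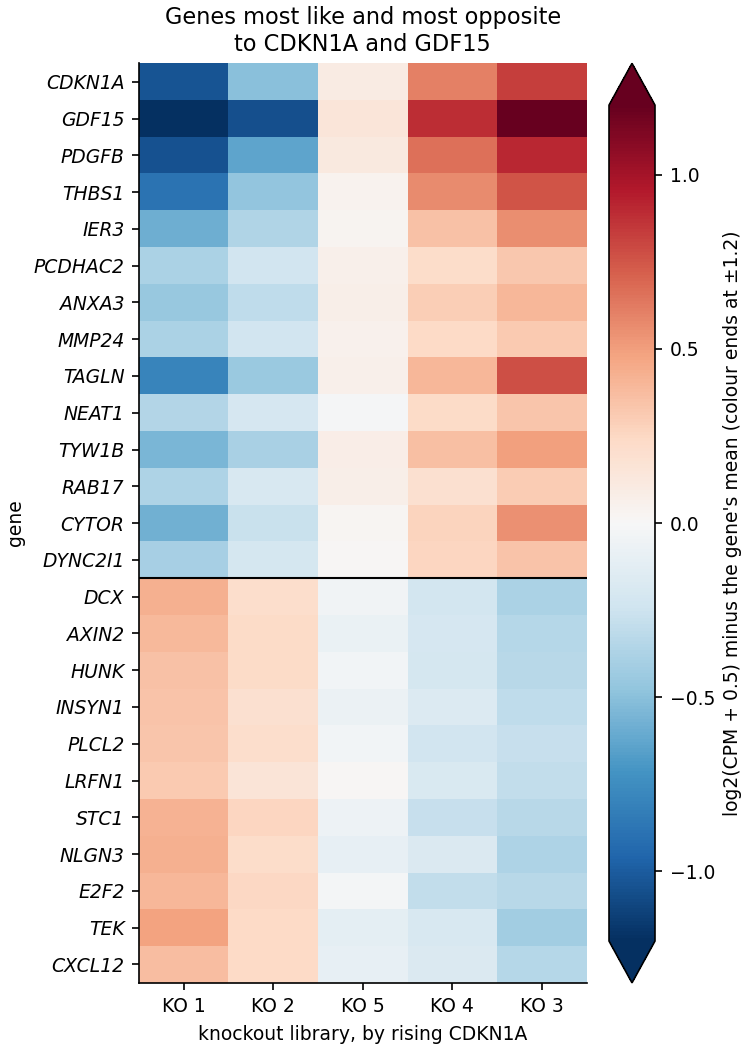
Deviation of log2(CPM + 0.5) from each gene's mean (colour; scale ends at ±1.2) in the 5 knockout libraries, ordered by rising CDKN1A (x axis), for CDKN1A, GDF15, the 12 genes most like both and 11 of the 12 most opposite (y axis, split by the black line). The upper block runs from low in KO 1 to high in KO 3 and the lower block the other way.

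Of the 12 senescence-linked and secreted genes described, 3 followed, among them GDF15 and CCN2, beside 1.18% of all genes. GDF15 is itself a reference of the rule. None of the 14 fibroblast and matrix genes followed. PDGFB, a growth factor for mesenchymal cells, was at 23.9, 32.0, 93.7, 79.1 and 54.0 CPM. THBS1, the matrix glycoprotein thrombospondin-1, was at 22.5, 30.1, 71.35, 62.5 and 43.3 CPM. PDGFB and THBS1 differed 3.85-fold and 3.13-fold, and both stood in the library order of CDKN1A.

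Targets of YAP and TAZ were among them too. CCN1, a matricellular protein that binds integrins, was at 132, 150.5, 484, 349 and 236 CPM. CCN2, the connective tissue growth factor, was at 159, 213, 536, 454.5 and 290 CPM. KO_3 and KO_4 were high for both, and KO_1 and KO_2 low, with ratios of 3.66 and 3.37, and 2.64 and 2.86 without KO_3. Of 13 YAP/TAZ targets described, 5 followed, beside 1.18% of all genes, and 0 ran opposite. The 5 were CCN1, CCN2, AMOTL2, NUAK2 and GADD45A. AMOTL2, which binds YAP, was at 67.7, 75.0, 121, 103 and 80.4 CPM. The median ratio of the 13 was 1.41, beside 1.14 for all genes. The count was also 5 without each library in turn.

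Actin genes of smooth and heart muscle were high in the same libraries. ACTG2, a smooth muscle actin, was at 5.17, 6.29, 12.8, 11.1 and 7.97 CPM. TAGLN, the actin-binding protein transgelin, was at 199, 253, 590, 455 and 361 CPM, a ratio of 2.95. CNN1, the smooth muscle calponin, was at 22.2, 26.7, 42.5, 32.8 and 33.9 CPM. KO_3 was the highest library for these 3, which were the followers among 19 actin and SRF-linked genes, and KO_1 the lowest. With any ratio allowed, 13 of the 19 had an r of at least 0.9 with CDKN1A, beside 7.57% of all genes. With TMM scaling the number was also 13, beside 12.2% of all genes. Of the 13, 10 had a ratio below 1.5, such as VCL at 557, 587, 750, 716 and 595 CPM and ACTB at 4545, 4591, 5311, 5357 and 5236 CPM. FHL1, a LIM domain protein of muscle, went the other way, at 76.9, 75.55, 63.95, 66.2 and 69.0 CPM, a ratio of 1.202. SRF itself was at 138, 150, 201, 180 and 159 CPM.

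Promoter sequence is shown for 3 genes of these groups, because the binding motifs of SRF and of TEAD, the DNA-binding partner of YAP, lie close to their start sites. The runs below are the 250 bases before the RefSeq start (GRCh38.p14), 5′ to 3′ on the gene's strand. For ACTG2 (chr2:73892758-73893007, plus strand) and ACTC1 (chr15:34795550-34795799, minus strand), capitals mark the CArG box that SRF binds, and for CCN2 (chr6:131951373-131951622, minus strand) they mark CATTCC, the core of the TEAD motif, read on the other strand as GGAATG.
Promoter of ACTG2: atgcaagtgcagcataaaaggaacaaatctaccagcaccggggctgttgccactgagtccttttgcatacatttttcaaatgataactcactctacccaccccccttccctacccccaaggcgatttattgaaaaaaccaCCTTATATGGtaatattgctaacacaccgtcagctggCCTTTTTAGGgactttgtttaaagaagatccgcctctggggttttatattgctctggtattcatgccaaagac
Promoter of ACTC1: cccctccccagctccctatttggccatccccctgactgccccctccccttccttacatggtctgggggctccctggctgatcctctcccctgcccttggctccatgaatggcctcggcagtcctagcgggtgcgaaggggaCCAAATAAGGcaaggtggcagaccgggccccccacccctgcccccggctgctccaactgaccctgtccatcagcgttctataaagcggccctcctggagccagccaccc
Promoter of CCN2: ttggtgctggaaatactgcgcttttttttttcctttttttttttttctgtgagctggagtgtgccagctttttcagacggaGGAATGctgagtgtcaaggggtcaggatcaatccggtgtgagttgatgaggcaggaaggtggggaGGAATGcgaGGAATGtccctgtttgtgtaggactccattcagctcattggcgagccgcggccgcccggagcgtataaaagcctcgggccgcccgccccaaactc
The ACTG2 window held 2 CArG boxes and the ACTC1 window 1, at 110, 73 and 109 bases before the start counted to the first base of each. The CCN2 window held 3 CATTCC matches, at 169, 104 and 95 bases before the start. These windows were shown because they hold a match, and the window of CNN1, which also followed, held none of the motifs searched. Of the 143 following genes, 107 had a promoter in the RefSeq table. A CArG box lay in 5 of the 107 (4.67%) and in 1 of 64 opposite genes (1.56%), beside 0.987% of the 9419 genes of 5 CPM with a promoter and 1.14% of all 27305 promoters. CATTCC, searched after values had been seen, lay in 11.2% of the following and 14.1% of the opposite genes, beside 9.12% of genes of 5 CPM and 11.9% of all. TGANTCA, the AP-1 site, lay in 4.67% of the following and 7.81% of the opposite genes, beside 3.25% of genes of 5 CPM and 6.6% of all. Both strands were searched, and a match describes the letters only. TGATGNAAT, a composite ATF4 site, lay in 0 of the 107, beside 0.35% of genes of 5 CPM and 0.916% of all. A p53-type site, searched as 2 CATG cores 6 bases apart, also lay in 0 of the 107, beside 0.117% and 0.297%. These counts say nothing of binding outside the windows.

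Immediate early genes encode transcription factors and feedback regulators that respond to growth factors and stress within minutes. JUN, a subunit of AP-1, was at 33.2, 40.9, 122, 88.65 and 61.1 CPM, a ratio of 3.63. FOSL1, a partner of JUN, was at 8.43, 10.6, 22.2, 18.7 and 16.8 CPM. IER3, a regulator of survival signalling, was at 61.1, 71.5, 136, 118 and 94.1 CPM. The 3 genes shared the order of CDKN1A. Of 20 members of the list, 8 followed and 0 ran opposite, beside 1.18% and 0.702% of all genes. The other followers were FOSL2, JUND, ATF3, BTG2 and KLF6. The gene lists share followers, so their counts are not separate. ATF3 is also in the ATF4 list and BTG2 in the p53 list. GADD45A is in the YAP/TAZ and p53 lists, and SESN2 in the p53 and ATF4 lists.

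FOS, FOSB and EGR1, named after their values were seen, did not follow. FOS was at 74.4, 74.8, 65.2, 67.3 and 63.2 CPM, and EGR1 at 64.9, 76.1, 54.2, 69.3 and 71.1 CPM. FOSB was at 19.9, 19.1, 10.3, 13.5 and 10.7 CPM, highest in KO_1 and KO_2. Outside the list, GADD45B, a stress-induced partner of growth arrest signalling, was at 9.90, 14.3, 39.3, 30.2 and 25.3 CPM. DUSP8, a phosphatase that acts on stress-activated kinases, was at 2.65, 3.16, 10.7, 7.44 and 5.28 CPM.

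Of 38 p53 targets described, 10 followed, CDKN1A itself among them, beside 1.18% of all genes. Of the rest, 0 ran opposite and 28 did neither. With any ratio allowed, 27 had an r of at least 0.9 with CDKN1A, which is itself 1 of the 38, beside 7.57% of all genes, and 1 (FUCA1) had an r of at most -0.9. A ratio of 1.5 was reached by the 10 that followed and by none of the others. PLK2, a polo-like kinase, was at 13.8, 16.3, 33.2, 27.0 and 19.5 CPM. BBC3, the proapoptotic protein PUMA, was at 34.5, 41.2, 64.25, 54.6 and 52.6 CPM. ZMAT3, an RNA-binding protein, was at 17.9, 21.4, 33.7, 30.5 and 27.2 CPM. These 3 were highest in KO_3 and lowest in KO_1.

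The E3 ligase MDM2, which turns over p53, was at 36.8, 35.8, 51.7, 50.02 and 45.9 CPM, a ratio of 1.44. None of 15 regulators of the p53 pathway reached a ratio of 1.5, beside 2.83% of the 11644 genes other than pseudogenes. MDM4 came nearest at 26.9, 26.2, 33.1, 31.9 and 32.4 CPM. Among 26 apoptosis genes, BBC3 and the death receptor TNFRSF10A followed, beside 1.18% of all genes. TNFRSF10A was at 5.61, 7.09, 9.13, 8.94 and 7.25 CPM.

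In the mean of the list of ATF4 and unfolded protein response genes, KO_3 stood above the rest, but not for every member. DDIT3, the proapoptotic factor CHOP, was at 5.94, 6.59, 18.8, 11.8 and 9.27 CPM. CHAC1, an enzyme that breaks down glutathione, was at 44.1, 50.2, 94.2, 68.7 and 55.85 CPM. DDIT4, an inhibitor of mTORC1, was at 64.5, 74.8, 139, 107 and 81.8 CPM. Of 32 members, 9 followed, beside 1.18% of all genes, and 0 ran opposite, but 4 followed when KO_3 was left out. HSPA5, a chaperone induced through the ATF6 arm, was at 604, 575, 603, 587 and 579 CPM, with no such order. HSP90B1, of the same list, was at 1121, 1067, 1053, 1084 and 1051 CPM. DNAJB9, also listed, was lowest in KO_3, at 7.65, 7.47, 6.86, 7.93 and 7.14 CPM. ATF4 transcript was at 518, 532, 633, 587 and 563 CPM. The mean of the 32 genes lay 0.27 above their own mean on the log2 scale in KO_3, 0.09 above in KO_4 and 0.14 below in KO_1.

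Among genes of early lineage signalling, 3 of 8 NODAL and primitive streak genes followed, beside 1.18% of all genes: NODAL, LEFTY2 and APLN. LEFTY2, an inhibitor of NODAL, was at 6.71, 7.14, 11.96, 8.97 and 7.94 CPM, and its ratio of 1.73 dropped to 1.31 without KO_3. APLN, the peptide ligand apelin, was at 14.0, 15.4, 26.3, 28.3 and 22.1 CPM. LEFTY1, the close paralog of LEFTY2, was at 19.6, 19.6, 23.8, 18.3 and 18.5 CPM and did not follow. RYR2, the calcium release channel of heart muscle, was at 3.73, 5.03, 7.58, 6.41 and 6.36 CPM and followed, as ACTC1 did, but TNNT2, the heart troponin T, was at 9.13, 10.7, 8.41, 8.80 and 9.27 CPM. The list of cardiac and lateral mesoderm genes had 4 members described.

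WNT pathway genes moved in both directions. RNF43, a membrane E3 ligase that removes WNT receptors, was at 4.196, 4.01, 6.86, 6.46 and 5.45 CPM and followed. AXIN2, a scaffold of the beta-catenin destruction complex and a common readout of WNT signalling, ran opposite at 16.25, 14.5, 9.58, 10.6 and 11.6 CPM. The secreted WNT antagonist SFRP1 was at 673, 623, 457.5, 509 and 548 CPM, and the receptor FZD8 at 12.3, 11.5, 8.22, 8.65 and 9.76 CPM. SFRP1 and FZD8 were highest in KO_1 and lowest in KO_3, with ratios of 1.47. Of 11 genes in the list, 1 followed and 1 ran opposite, beside 1.18% and 0.702% of all genes.

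Of 9 neural genes described, 2 ran opposite, beside 0.702% of all genes, and 0 followed. OTX2, a homeobox factor of primed pluripotency and of the forebrain, was at 24.6, 22.2, 13.3, 13.6 and 19.9 CPM. DCX, the microtubule protein doublecortin of young neurons, was at 6.85, 5.82, 3.68, 4.19 and 4.81 CPM. KO_1 was highest and KO_3 lowest for both, and the ratios were 1.82 and 1.76. NES, the intermediate filament nestin of neural progenitors, went the other way with a small ratio of 1.11, at 371, 369, 410.0, 395 and 392 CPM. STMN2, GAP43 and NHLH2, also of the list, had ratios of 1.26, 1.13 and 1.197 and neither followed nor ran opposite.

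Other opposite genes were NLGN3, a synaptic adhesion protein, at 13.7, 11.8, 7.69, 8.87 and 9.38 CPM and the chemokine CXCL12 at 42.1, 38.2, 25.5, 28.6 and 30.2 CPM. STC1, the secreted hormone stanniocalcin, was at 23.8, 21.2, 14.0, 14.5 and 17.0 CPM. TEK, the angiopoietin receptor, was at 16.45, 13.8, 8.54, 10.1 and 10.7 CPM. KO_3 was the lowest and KO_1 the highest for all 4. The kinase HUNK, the synaptic proteins INSYN1 and LRFN1, and PLCL2 had the same order, with ratios of 1.53 to 1.61. Without KO_3 these ratios were 1.41 to 1.47 and that of CXCL12 was 1.46, all below 1.5. Those of NLGN3, STC1 and TEK were 1.52 to 1.62.

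Of 23 core pluripotency genes, 9 had an r of at most -0.9 with CDKN1A, beside 11.3% of all genes. An r of at least 0.9 was found for 1, beside 7.57% of all genes. Among the 9 was DNMT3B, a DNA methyltransferase of pluripotent cells, at 962, 908, 711, 732 and 828 CPM. SOX2 was at 318, 304, 247, 242 and 283 CPM. PRDM14, a repressor of differentiation genes, was at 27.9, 25.2, 20.0, 19.6 and 20.8 CPM. POU5F1 and NANOG were not among the 9. With TMM or DESeq2 scaling the number was 7, beside 6.63% or 6.41% of all genes. An r of at least 0.9 was then found for 3, beside 12.2% of all genes.

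Genes of DNA replication were slightly higher where CDKN1A was low, by a mean of 0.12 in KO_1 against -0.08 in KO_4 on the centred log2 scale, or 0.09 against -0.06 with TMM scaling. E2F2, a factor that drives entry into S phase, was at 11.45, 10.3, 6.70, 6.90 and 8.38 CPM and was the sole opposite gene among 23. CCNE1, cyclin E1, was at 40.3, 37.9, 31.8, 31.5 and 32.45 CPM. An r of at most -0.9 with CDKN1A was found for 15 of the 23, beside 11.3% of all genes. The number was 7 with TMM scaling, beside 6.63% of all genes, and 6 with DESeq2 size factors, beside 6.41%. This count therefore depended on the scaling. None of 24 mitosis genes reached a ratio of 1.5, beside 2.83% of the 11644 genes other than pseudogenes. KIF20A, a mitotic kinesin, was at 122, 121, 131, 139.5 and 142 CPM.

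**Figure D5:**
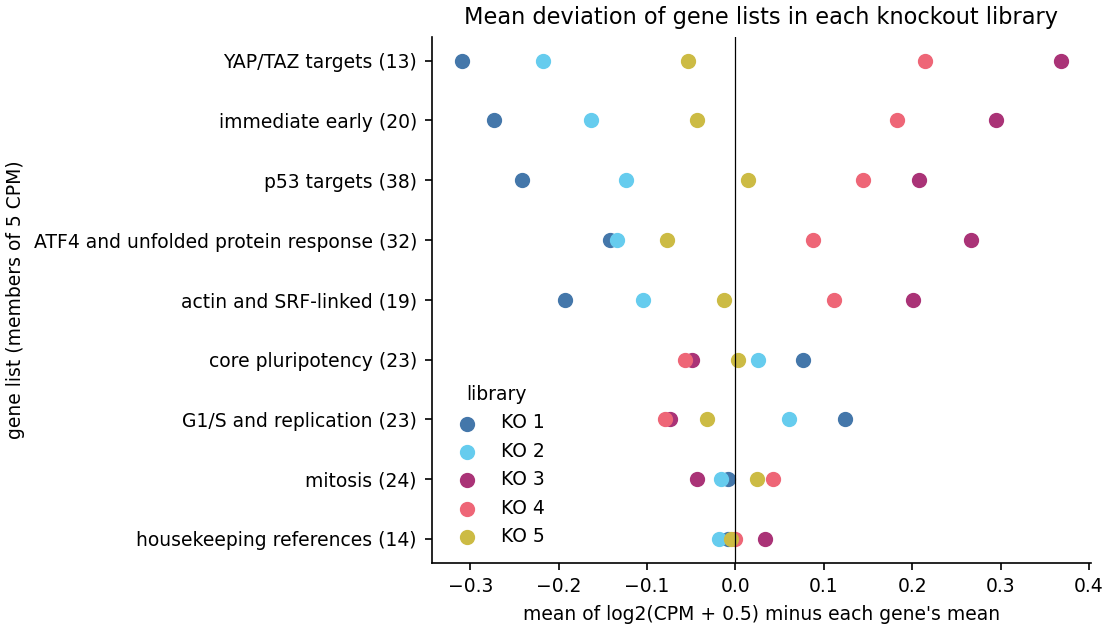
Mean over the described members of each gene list (y axis, number of members in brackets) of log2(CPM + 0.5) minus each gene's own mean (x axis), 1 point per knockout library. YAP/TAZ targets run from -0.31 in KO 1 to 0.37 in KO 3, G1/S genes from -0.08 in KO 4 to 0.12 in KO 1, and housekeeping genes stay near 0.

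A different set of transcripts was high in KO_5 and low in KO_1. RMRP, the RNA of a mitochondrial RNA processing nuclease, was at 2.35, 9.09, 5.125, 5.25 and 11.95 CPM, a ratio of 4.37 with or without KO_3. RN7SK, which holds back a kinase of transcription elongation, was at 3.86, 9.51, 8.19, 8.16 and 12.3 CPM. RN7SL1, the RNA of the signal recognition particle, named after its values were seen, was at 31.6, 56.4, 43.1, 40.3 and 64.6 CPM. These are structured RNAs that normally carry no poly(A) tail. KO_2 was second for all 3, and none followed CDKN1A. A set of 3 lincRNA entries on chromosome 21 without symbols had identical counts in every library, at 243, 786, 530, 593 and 1180 CPM, with the same low KO_1 and high KO_5. Whether carry-over of such RNAs into the polyA libraries differed was not tested.

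Metallothioneins, small proteins that bind zinc and copper, were lowest in KO_1. MT1G was at 3.86, 5.165, 8.70, 8.77 and 7.44 CPM and MT2A at 5.44, 8.98, 10.7, 10.2 and 10.5 CPM. MT1E was at 4.16, 5.44, 9.10, 8.38 and 8.19 CPM. MT1G and MT1E followed, and MT2A without KO_1 differed 1.18-fold. Family members share much of their sequence, so their reads may be split between them. The same holds for TYW1B and for CYTOR, which have near-identical copies. TYW1B was at 26.8, 30.0, 55.4, 50.4 and 41.6 CPM, and CYTOR at 4.83, 6.13, 11.1, 9.09 and 7.58 CPM.

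Other groups held few or no genes with a ratio of 1.5, which 2.83% of the 11644 genes other than pseudogenes reached. To find none in a list of this size is near that share. The median ratios of these lists ran from 1.09 for housekeeping genes to 1.19 for fibroblast and matrix genes, beside 1.14 for all genes. None of 25 cholesterol genes, 29 glycolysis and hypoxia genes, 17 heat shock genes, 15 antioxidant genes, 18 potassium channels or 14 housekeeping genes reached a ratio of 1.5. None of 14 fibroblast and matrix genes did either, and COL1A2, a fibrillar collagen, was at 92.9, 95.1, 68.9, 70.6 and 72.0 CPM. KRT7, a keratin of simple epithelia, was the sole member of 5 trophoblast and amnion genes to pass it, at 6.58, 7.69, 3.92, 4.07 and 6.42 CPM, and it did not follow or run opposite. None of 6 neural crest genes reached a ratio of 1.5.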

How the data were processed

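Per the labels, the 10 polyA libraries were run on a NovaSeq-6000 as paired ends of 150 cycles. The authors deposited raw counts per gene without normalization, and R 3.6.3, DESeq2 and the build hg38 are named in the submitters' processing notes. Details of alignment, gene assignment and strand were not given in the sources used here. Near-identical copies, overlapping genes and antisense partners may share reads. A deposited table contrasting the groups was left unused.

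Counts were divided by column totals to give CPM, and log2(CPM + 0.5) was used with Python 3.11.15, numpy 2.4.6 and pandas 2.3.3. Dispersion and scaling factors came from edgeR 4.0.16 and DESeq2 1.42.0 in R 4.3.3. No test between groups was run, since the 5 libraries form 1 group. The steps were run on simulated counts in which the planted genes carried the CDKN1A pattern, or its reverse, at full size. That run checks the working of the steps only, and says nothing of weaker patterns. Gene types and positions came from GENCODE 29 (GRCh38, the assembly of hg38), which held 31146 of the 32152 genes, and promoters from RefSeq. Counts carry no molecular identifiers, so floors cover counting error only.

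Pairs of knockout libraries differed by more than sampling noise (chi-square per gene of 5.14 to 28.6), and each was kept as 1 library. The members and the 31 gene lists were chosen with earlier results of these data known. Named genes were the 5 given ones, the 12 with the largest SD with and without KO_3 once pseudogenes and entries without a symbol were left out, the 12 most like and most opposite to CDKN1A and GDF15, and up to 4 per list by SD. Pseudogenes, RN7SL1 and the further list members and markers were named as examples after their values were seen. A few genes chosen by this rule are not reported here.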

Additional observations from a re-analysis of the deposited data

Results flagged for a closer look

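Among 147 named results tested for a library far from the other 4 by Dixon's criterion, 5 met it, all in KO_3. Chance alone meets it in about 1 of 20 groups. Processed pseudogenes took 0.495% of counts in KO_3 and 1.24% to 1.43% in the others. Protein-coding genes took 97.0% in KO_3 and 95.9% to 96.2% in the others. LINC00987, a long noncoding RNA, was at 2.11 CPM in KO_3 and 7.11 to 8.83 CPM elsewhere. MT-ATP8, a small subunit of the mitochondrial ATP synthase whose reading frame overlaps that of MT-ATP6, was at 63.9 CPM in KO_3 and 96.5 to 103 CPM elsewhere. HMOX1, the stress-induced haem oxygenase, was at 32.1 CPM in KO_3 and 23.7 to 25.9 CPM elsewhere.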

How the results depend on the processing

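No paired analysis was possible because the libraries of 1 group were described without a test and no groups were compared. The 361 genes with a 2-fold ratio became 805 at a minimum of 1 CPM, 227 at 10 CPM and 81 without pseudogenes (an alternative chosen after seeing the data), and 41 to 359 with each library left out in turn, lowest without KO_3. The 143 following genes became 95 to 150 with a library left out, lowest without KO_3, and 51 with a ratio of 2, a limit also chosen after seeing the data. The 85 opposite genes became 199 at 1 CPM, 43 at 10 CPM, 2 with a ratio of 2, and 40 to 152 with a library left out: 45 without KO_1, 40 without KO_3 and 152 without KO_4. Following members of the p53 list (10) and of the ATF4 list (9) each became 4 with a ratio of 2, and 7 to 10 and 4 to 9 with a library left out. The 3 of the actin list became 5 with DESeq2 size factors. With either TMM or DESeq2 scaling of the same 12114 genes, the p53 list had 13 followers in place of 10. The immediate early list had 12 in place of 8 and the YAP/TAZ list 6 in place of 5, while the ATF4 list stayed at 9. The GDF15 ratio of 9.45 lay between 5.62 and 9.45 with a library left out, lowest without KO_3. The cause of these shifts was not tested. Among 134 single-gene ratios, 7 changed by more than 1.5-fold without KO_3, 3 without KO_1 and 0 under either other scaling or pseudocount (0.1 or 2). Depth limits genes near 5 CPM, where the lowest library can hold under 100 counts.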

Other observations

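The varying genes PGAM4, TUBA1B-AS1 and TVP23C-CDRT4 neither followed nor ran opposite. PGAM4, an intronless copy of the glycolytic phosphoglycerate mutase gene, was at 37.9, 30.9, 8.33, 28.6 and 27.3 CPM in KO_1 to KO_5. TUBA1B-AS1, which lies antisense to a tubulin gene, was at 9.10, 7.61, 2.06, 6.63 and 10.2 CPM. Both were lowest in KO_3, as the processed pseudogenes were. The readthrough transcript TVP23C-CDRT4 was at 5.98, 10.4, 2.91, 12.6 and 8.46 CPM, with KO_4 and KO_2 high. HSPA1A, HSPA1B, NQO1 and SLC7A11 were not varying genes, with ratios of 1.25 to 1.44. HSPA1A and HSPA1B had r of at most -0.9 with both CDKN1A and GDF15, and NQO1 of at least 0.9. Only their ratios below 1.5 kept these genes from being called opposite or following. HSPA1A and HSPA1B, near-identical genes of the inducible chaperone HSP70, were at 36.0, 33.2, 27.5, 26.5 and 32.8 CPM and at 104, 101, 83.5, 86.8 and 94.4 CPM, so neither was high where the stress genes DDIT3 and GDF15 were high. NQO1, a reductase controlled by NRF2, was at 57.3, 55.9, 80.7, 72.0 and 65.3 CPM, highest in KO_3 and KO_4. SLC7A11, a cystine transporter and also an NRF2 target, was at 32.2, 26.9, 36.5, 29.6 and 26.9 CPM, highest in KO_3 and KO_1.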
